A study of Mus musculus with 8 samples.

Results

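The genes described here are 10 homeostatic astrocyte genes: the glutamate transporters Slc1a2 and Slc1a3, glutamine synthetase Glul, the water channel Aqp4, the gap junction genes Gja1 and Gjb6, and the markers Aldh1l1, Acsbg1, Ntsr2 and S100b. They were chosen by name, for what they do in astrocytes, with earlier results of these data known. They make up 10 of the 31417 genes in the count table. All 10 were found, and 10 of 10 passed the filter on low counts that left 16228 genes for testing. The data are poly(A) RNA sequencing of bulk hippocampus from mice aged 12 months, with 4 libraries from Dclk3 knockout (KO) mice and 4 from wild-type (WT) mice. Dclk3 codes for a protein kinase of the doublecortin-like family. The sources used here do not give the deleted part of the gene, whether the deletion is limited to a cell type, the strain or the sex. Each library was prepared from 1 hippocampus. No label states that libraries of the same genotype stem from separate mice, so p-values reflect spread among samples that may be partly technical.

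Astrocytes take up the glutamate that neurons release, convert it to glutamine and return it for new transmitter synthesis. Their endfeet wrap blood vessels and carry water channels, and gap junctions join neighbouring astrocytes into networks that share ions and metabolites. In injury and disease astrocytes can become reactive, a state known for high Gfap and other stress genes, and homeostatic genes may then change as well. In bulk tissue, fewer astrocytes and less RNA per astrocyte cannot be told apart.

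Levels are given as CPM, the usual unit of counts relative to the library total, with scaling between libraries, and differences as log2 fold changes of KO against WT, so a positive value is higher in KO. The libraries held 29301974 to 36552757 counts, and 1 count equalled 0.0274 to 0.0341 CPM. The lowest count of any of the 10 genes in any library was 1350, for which counting error is 2.72%, below the coefficient of variation of every one of the 10 genes over the 8 libraries (5.75% to 22.7%). Dclk3 lay between 5.92 and 9.29 CPM in the KO libraries and between 20.8 and 39.3 CPM in the WT libraries, with no overlap. The test by edgeR did not call Dclk3 itself (log2 fold change -1.79, SE 0.22, adjusted p = 0.234), while DESeq2 did (adjusted p = 3.9e-13), as did edgeR without WT replicate 2 (adjusted p = 0.0121). A gene that misses the edgeR threshold is therefore not shown to be unchanged. The hippocampal markers were detected, with 12 of 12 region genes above 0 in every library. WT replicate 2 stood apart in the astrocyte genes: Gfap, the intermediate filament of reactive astrocytes, was at 1805 CPM there and at 442 to 578 CPM in the other 7 libraries. Log2 fold changes and list medians are also given without it where that turns their sign or moves them by over 1.5 times.

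Slc1a3 and Acsbg1 had the highest Pearson correlation of any pair of the 10 genes over all 8 libraries, though not without WT replicate 2, and their promoters are shown for that reason. Each sequence is the 250 bases before the RefSeq start of transcription (GRCm38.p6), read 5′ to 3′ on the strand of the gene, and neither window overlaps an annotated exon. Capitals mark matches, on either strand, to the STAT motif TTCNNNGAA, the nuclear factor I half-site TTGGC, the SOX core ACAAT, the GC box GGGCGG and the TATA box TATAAA. No match in these windows overlaps another, apart from the STAT motif, which reads the same on both strands.
Slc1a3, chr15:8710808-8711057, minus strand: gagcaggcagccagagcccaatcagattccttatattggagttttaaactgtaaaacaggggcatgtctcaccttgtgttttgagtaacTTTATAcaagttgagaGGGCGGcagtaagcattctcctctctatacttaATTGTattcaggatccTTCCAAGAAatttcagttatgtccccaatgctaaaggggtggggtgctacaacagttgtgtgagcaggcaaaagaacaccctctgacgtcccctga
Acsbg1, chr9:54661886-54662135, minus strand: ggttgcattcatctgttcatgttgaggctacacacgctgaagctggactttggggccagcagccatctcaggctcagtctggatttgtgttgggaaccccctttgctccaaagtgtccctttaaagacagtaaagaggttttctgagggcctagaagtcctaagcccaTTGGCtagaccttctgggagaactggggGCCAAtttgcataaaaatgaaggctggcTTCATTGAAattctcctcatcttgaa
Both windows hold a STAT motif, TTCCAAGAA starting 96 bases before the start of Slc1a3 and TTCATTGAA starting 26 bases before the start of Acsbg1. RefSeq promoters were matched for 9 of the 10 genes, with no entry for Aqp4. The windows of Glul, Slc1a2, Aldh1l1 and Ntsr2 overlap annotated exons. Those of Slc1a2 and Aldh1l1 lie inside the gene spans given below, and that of Ntsr2 reaches past the start of its span. A STAT motif lay in 3 of the 9 windows (Slc1a3, Acsbg1 and Ntsr2) and in 7.02% of all 32851 promoters. The nuclear factor I half-site lay in 5 of 9 windows and in 41.5% of all promoters, and the GC box in 3 of 9 and in 32.7%. The SOX core was found in 1 of 9 windows and in 27.7% of all promoters, and the TATA box in 1 of 9 and in 12.4%, both in Slc1a3. A match describes letters in the window and says nothing of binding there.

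The 3 genes of glutamate uptake and conversion had similar or higher mean levels in KO, and none passed the test. Slc1a2 (chr2:102658659-102790784 in mm10, plus strand) codes for GLT-1, the main glutamate transporter of the adult forebrain. It was at 5327, 4690.2, 4374 and 4846 CPM in WT replicates 1 to 4 and at 5030.0, 4407, 4802 and 5509.7 CPM in KO replicates 1 to 4. Both groups held a library near the bottom of the range and the groups overlapped almost fully. Mean CPM was 4809 ± 397 for WT against 4937 ± 460.4 for KO (SD, n = 4 each). The log2 fold change was 0.04 (SE 0.09, 95% interval -0.15 to 0.23), with an adjusted p of 0.947 by edgeR's quasi-likelihood test with Benjamini-Hochberg adjustment. It was -0.02 without KO replicate 4, the highest library, and 0.09 without KO replicate 2.

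Slc1a3 (chr15:8634124-8710764, minus strand) codes for GLAST, the other astrocytic glutamate transporter. It was at 987, 833, 887 and 888 CPM in WT replicates 1 to 4 and at 1044, 902, 947 and 960.1 CPM in KO replicates 1 to 4. WT replicates 2, 3 and 4 lay below every KO library, and WT replicate 1 lay above 3 of the 4 KO libraries, so the groups overlapped through that library. Mean CPM was 899 ± 64.1 for WT against 963 ± 59.3 for KO (SD, n = 4 each). The log2 fold change was 0.10 (SE 0.07, 95% interval -0.06 to 0.26; edgeR adjusted p = 0.824), and it was 0.06 without KO replicate 1. Without WT replicate 1 it was 0.15.

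Glul (chr1:153899944-153909723, plus strand) codes for glutamine synthetase, which turns glutamate and ammonia into glutamine. Its level was 2087, 1165, 1713 and 1831 CPM in WT replicates 1 to 4 and 2163, 1911, 2179.8 and 2243 CPM in KO replicates 1 to 4. WT replicate 2 was far below the rest, at 0.558 times the median of the other 7 libraries, and only WT replicate 1 reached into the KO range. Mean CPM was 1699 ± 389 for WT against 2124 ± 146 for KO (SD, n = 4 each). This was the largest of the 10 differences, giving a log2 fold change of 0.32 (SE 0.15, 95% interval -0.02 to 0.66). It did not pass, with an unadjusted p of 0.0598 and an adjusted p of 0.796 by edgeR, and an unadjusted p of 0.0311 and an adjusted p of 0.733 by DESeq2. Without WT replicate 2 the WT mean was 1877 ± 191 CPM (SD, n = 3) and the log2 fold change was 0.18 (edgeR adjusted p = 0.966). Without WT replicate 1, the highest WT library, the log2 fold change was 0.44 (edgeR adjusted p = 0.739).

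Aqp4 codes for aquaporin-4, the water channel of astrocyte endfeet, and was the only one of the 10 with a lower mean in KO. It was at 228, 375, 214 and 214 CPM in WT replicates 1 to 4 and at 252, 224, 214 and 220.1 CPM in KO replicates 1 to 4. Aqp4 in WT replicate 2 was 1.70 times the median of the other 7 libraries, and those 7 lay within 214 to 252 CPM with the groups overlapping. Mean CPM was 258 ± 78.5 for WT against 227 ± 16.9 for KO (SD, n = 4 each). The log2 fold change was -0.18 (SE 0.17, 95% interval -0.57 to 0.21; edgeR adjusted p = 0.862). Without WT replicate 2 its sign turned, to 0.06 (edgeR adjusted p = 0.973), with a WT mean of 219 ± 8.25 CPM (SD, n = 3).

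The log2 fold changes of both gap junction genes moved without WT replicate 2, but only that of Gja1 changed sign. Gja1 (chr10:56377330-56402513, plus strand) codes for connexin 43. It was at 339, 201, 317 and 309.6 CPM in WT replicates 1 to 4 and at 345, 319.6, 293 and 307 CPM in KO replicates 1 to 4. WT replicate 2 was 0.636 times the median of the other 7 libraries, and the rest of WT lay within the KO range. Mean CPM was 292 ± 61.5 for WT against 316 ± 21.9 for KO (SD, n = 4 each), giving a log2 fold change of 0.12 (SE 0.14, 95% interval -0.20 to 0.43; edgeR adjusted p = 0.886). Without WT replicate 2 the sign turned, to -0.02 (edgeR adjusted p = 0.987).

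Gjb6 (chr14:57123303-57133611, minus strand) codes for connexin 30, which forms channels in astrocytes beside connexin 43. It was at 58.5, 42.1, 65.3 and 49.7 CPM in WT replicates 1 to 4 and at 70.6, 50.6, 58.0 and 79.2 CPM in KO replicates 1 to 4. The lowest library was WT replicate 2 and the highest KO replicate 4, at 1.37 times the median of the others, and the groups overlapped. Mean CPM was 53.9 ± 10.1 for WT against 64.6 ± 12.8 for KO (SD, n = 4 each), giving a log2 fold change of 0.26 (SE 0.17, 95% interval -0.11 to 0.63; edgeR adjusted p = 0.799). Leaving out WT replicate 2 gave 0.16 and leaving out KO replicate 4 gave 0.15.

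The 4 marker genes had slightly higher means in KO, and none passed the test. Aldh1l1 (chr6:90486427-90600203, plus strand) codes for a folate enzyme and is widely used to label astrocytes. It was at 69.5, 72.0, 65.1 and 67.5 CPM in WT replicates 1 to 4 and at 78.4, 68.2, 71.8 and 68.4 CPM in KO replicates 1 to 4. The groups overlapped, and WT replicate 2 was the highest WT library here, unlike for Glul or Gja1. Mean CPM was 68.5 ± 2.91 for WT against 71.7 ± 4.76 for KO (SD, n = 4 each), giving a log2 fold change of 0.07 (SE 0.06, 95% interval -0.07 to 0.20; edgeR adjusted p = 0.853). It was 0.02 without KO replicate 1 and 0.09 without WT replicate 2.

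Acsbg1 (chr9:54604877-54661870, minus strand) codes for an acyl-CoA synthetase that activates long-chain fatty acids. It was at 194, 150.5, 168 and 175 CPM in WT replicates 1 to 4 and at 202, 172, 195 and 189 CPM in KO replicates 1 to 4. WT replicate 2 was the lowest library and KO replicate 1 the highest, and the groups overlapped. Mean CPM was 172 ± 18.04 for WT against 189 ± 12.9 for KO (SD, n = 4 each), giving a log2 fold change of 0.14 (SE 0.08, 95% interval -0.05 to 0.32; edgeR adjusted p = 0.797). It was 0.08 without WT replicate 2 and 0.20 without WT replicate 1.

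Ntsr2 (chr12:16653382-16660227, plus strand) codes for a neurotensin receptor that is enriched in astrocytes. It was at 81.3, 55.3, 64.9 and 67.8 CPM in WT replicates 1 to 4 and at 95.8, 77.9, 76.1 and 69.6 CPM in KO replicates 1 to 4. WT replicates 2, 3 and 4 lay below every KO library, and WT replicate 1 lay above 3 of the 4. Mean CPM was 67.3 ± 10.7 for WT against 79.8 ± 11.2 for KO (SD, n = 4 each), giving a log2 fold change of 0.25 (SE 0.13, 95% interval -0.03 to 0.53; edgeR adjusted p = 0.796). Leaving out WT replicate 2 gave 0.17 and leaving out KO replicate 1 gave 0.15. Without WT replicate 1 it was 0.35 (edgeR adjusted p = 0.739).

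S100b (chr10:76253853-76261159, plus strand) codes for a calcium-binding protein that astrocytes release. It was at 135, 115, 116 and 120.3 CPM in WT replicates 1 to 4 and at 140.9, 127, 123 and 115 CPM in KO replicates 1 to 4. The groups overlapped over nearly their whole range. Mean CPM was 122 ± 9.15 for WT against 126 ± 10.7 for KO (SD, n = 4 each), giving a log2 fold change of 0.05 (SE 0.08, 95% interval -0.11 to 0.22; edgeR adjusted p = 0.905), which became 0.03 with WT replicate 2 left out and 0.003 with KO replicate 1 left out. It was 0.11 with WT replicate 1 left out. S100b overlaps Dip2a on the opposite strand, a gene with 23752 counts over the 8 libraries. The sources used here do not say whether the authors counted by strand, so S100b is uncertain to that extent. Of the other 9 genes, 5 overlap annotated genes, and the overlapping genes in the table had at most 497 counts over the 8 libraries (Teddm2, on the opposite strand to Glul).

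**Figure D1:**
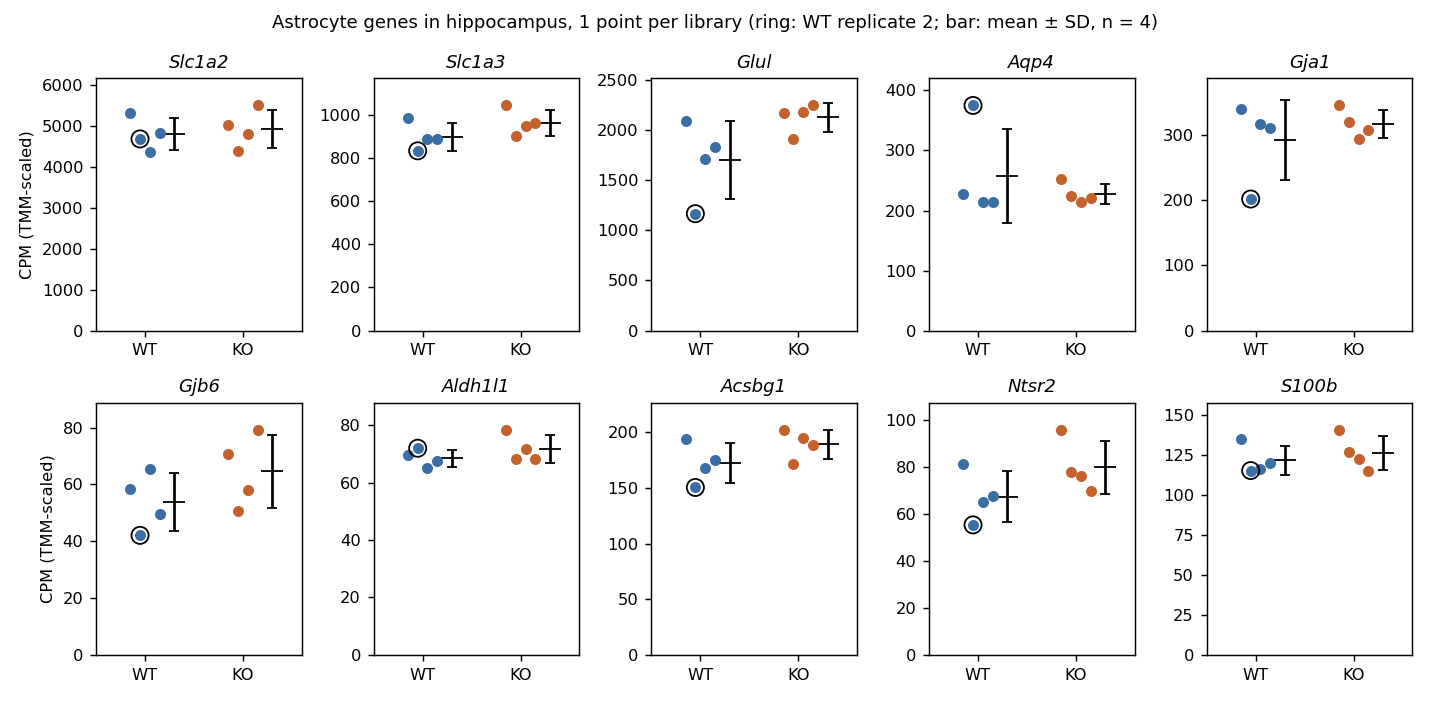
CPM (vertical axes, from 0) of the 10 astrocyte genes in the 4 WT (blue) and 4 KO (orange) libraries, 1 point per library, with mean ± SD beside each group and a ring around WT replicate 2. The groups overlap for every gene, and the ringed library is lowest for 6 genes and highest for Aqp4.

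Across the 10 genes, none was called at an adjusted p under 0.05 by edgeR, where 0% of the 16228 genes tested were called, and none by DESeq2, which called 0.0308% of 16216. At an unadjusted p under 0.05, 0 of 10 passed by edgeR (background 6.16%), and Glul passed by DESeq2 (background 6.17%). The groups overlapped for 10 of 10, where 3.80% of all genes tested had groups that did not overlap. The log2 fold change was above 0 for 9 of 10, against 50.1% of all genes tested, and its median was 0.11 against 0.0003 over all genes. The 10 genes were correlated over these libraries (median r of 0.52 over their pairs), so they are not 10 separate observations. Without WT replicate 2 the number above 0 was again 9 of 10 (background 50.9%), with Aqp4 now above 0 and Gja1 below, and the median was 0.08. In that fit 0 of 10 were called by edgeR (background 0.00608%), and 0 of 10 had an unadjusted p under 0.05 (background 4.57%). The median ranged from 0.07 without KO replicate 1 to 0.17 without WT replicate 1. With WT replicate 2 and KO replicate 1 both left out, a setting chosen after the data were seen, it was 0.04. The 95% intervals show what these libraries could not tell apart: for Glul they reach from just below no change to a log2 fold change of 0.66, and for Aldh1l1 they stay within -0.07 to 0.20.

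**Figure D2:**
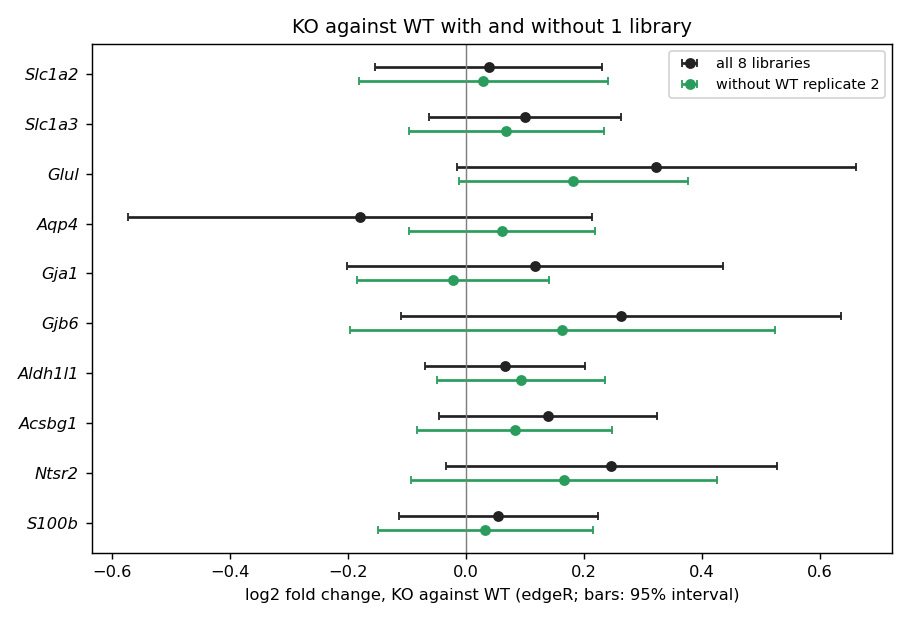
Log2 fold change of KO against WT (horizontal axis) with its 95% interval for each of the 10 genes, from all 8 libraries (black) and without WT replicate 2 (green). Every interval includes 0, and the points of Aqp4 and Gja1 move across 0 when the library is left out.

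The genes differed in how far they varied. The coefficient of variation of CPM over the 8 libraries was lowest for Aldh1l1 (5.75%) and Slc1a3 (7.17%), followed by S100b (7.71%), Slc1a2 (8.29%) and Acsbg1 (9.54%). It was 14.7% for Gja1, 16.5% for Ntsr2, 18.5% for Glul, 20.5% for Gjb6 and 22.7% for Aqp4. This order rested on WT replicate 2 for some genes. Over the other 7 libraries the coefficient of variation was 6.14% for Aqp4, 5.69% for Gja1 and 9.95% for Glul, so Aqp4 and Gja1 varied about as little as Aldh1l1 (6.12%) and Slc1a3 (6.16%). It was 7.09% for Acsbg1, 7.67% for S100b and 8.75% for Slc1a2. Ntsr2 (13.7%) and Gjb6 (17.4%) varied most among those 7 libraries.

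Levels between genes were compared as CPM per kilobase of exon, with all annotated exons of a gene joined. The order depends on that length, 3323 bases for Glul and 13133 for Slc1a2. Before division by it, mean CPM in WT was 1699 for Glul and 4809 for Slc1a2. In WT the order was Glul (511 ± 117), Slc1a2 (366 ± 30.2), Slc1a3 (105 ± 7.51), S100b (82.1 ± 6.16), Acsbg1 (47.7 ± 5.01), Aqp4 (41.3 ± 12.6), Gja1 (28.4 ± 6.0), Ntsr2 (21.6 ± 3.44), Gjb6 (20.1 ± 3.79) and Aldh1l1 (15.2 ± 0.645), each a mean ± SD of 4 libraries. The ranges over the 8 libraries did not overlap between Slc1a2 and Slc1a3, Slc1a3 and S100b, S100b and Acsbg1, or Aqp4 and Gja1. They overlapped for the other neighbours: Glul was above Slc1a2 in 7 of 8 libraries, Acsbg1 above Aqp4 in 7, Ntsr2 above Gjb6 in 6, Gjb6 above Aldh1l1 in 7, and Gja1 above Ntsr2 in all 8. The exception for Glul was WT replicate 2, where Glul was at 350.5 CPM per kilobase. In KO, Glul was at 639 ± 44.0 and Slc1a2 at 376 ± 35.1 CPM per kilobase (SD, n = 4 each).

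Part of the variation across libraries was shared between the genes. Log2 CPM was centred for each gene on its mean over the 8 libraries, and the mean of the 10 centred values was 0.09, -0.20, -0.07 and -0.07 in WT replicates 1 to 4 and 0.19, -0.03, 0.02 and 0.07 in KO replicates 1 to 4. WT replicate 2 was lowest and KO replicate 1 highest. WT replicate 2 was the lowest of the 8 libraries for Slc1a3, Glul, Gja1, Gjb6, Acsbg1 and Ntsr2, 6 of 10 genes, where 19.4% of all genes tested were lowest in that library. KO replicate 1 was the highest for 6 of 10 (background 18.7%), and KO replicate 4 was the highest for Slc1a2, Glul and Gjb6 (background 15.5%) and the lowest for S100b (background 15.9%). WT replicate 3 was the lowest for Slc1a2, Aqp4 and Aldh1l1 (background 6.88%), and WT replicate 2 the highest for Aqp4 (background 18.9%). In WT replicate 2 the centred value was -0.69 for Glul, -0.58 for Gja1, -0.47 for Gjb6 and -0.39 for Ntsr2, but only -0.05 for Slc1a2, 0.04 for Aldh1l1 and 0.65 for Aqp4. The astrocyte genes thus did not move as a block in that library: some were low, some near the mean, and Aqp4 was high.

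**Figure D3:**
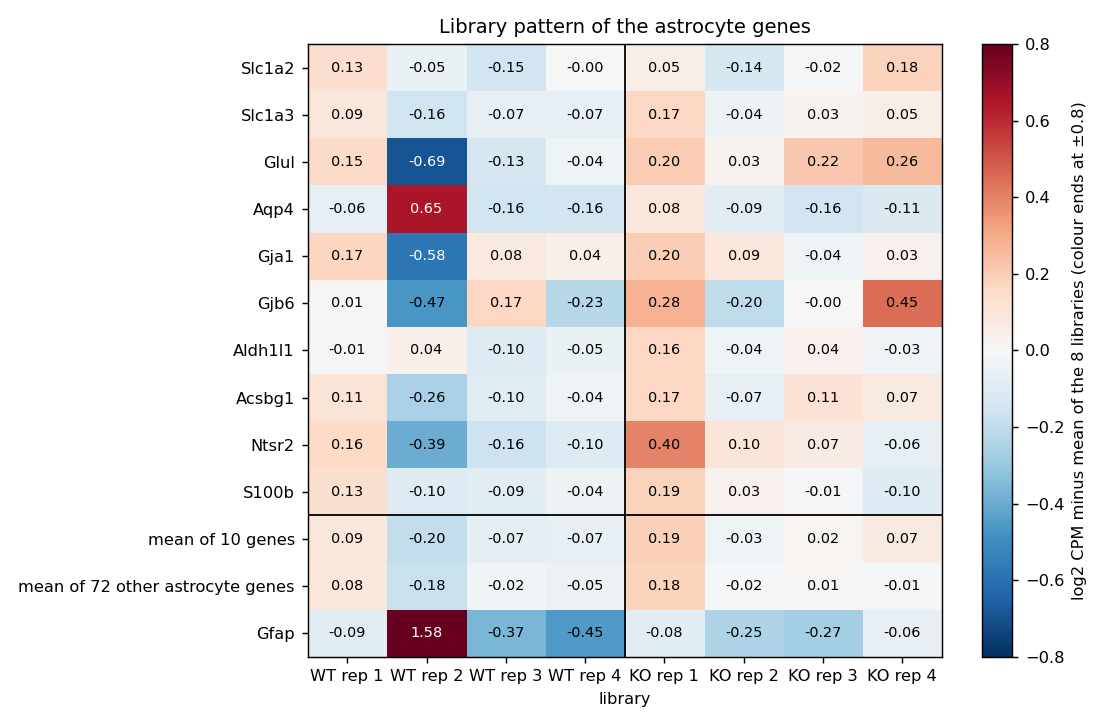
Centred log2 CPM (colour and printed value) of the 10 astrocyte genes, their mean, the mean of 72 other astrocyte genes and Gfap, by library. In WT replicate 2 Glul, Gja1, Gjb6 and Ntsr2 are low while Aqp4 (0.65) and Gfap (1.58) are high.

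Of the 45 pairs among the 10 genes, 36 had a Pearson correlation of log2 CPM above 0, with a median of 0.52. With Benjamini-Hochberg adjustment over the 45 pairs, 4 passed 0.05 by Pearson's r and 0 by Spearman's rho. Slc1a3 and Acsbg1, whose promoters are printed above, had the highest value, r = 0.948 (exact permutation p = 0.0012, adjusted p = 0.0223, n = 8) and rho = 0.905 (exact permutation p = 0.0046, adjusted p = 0.103). Without KO replicate 1 and WT replicate 2, the libraries farthest from the median of Slc1a3, r was 0.920. Glul and Acsbg1 had r = 0.926 (exact permutation p = 0.0015, adjusted p = 0.0223, n = 8) and rho = 0.810 (adjusted p = 0.140), with r = 0.825 when WT replicates 2 and 3 were left out. Ntsr2 and S100b had r = 0.900 (exact permutation p = 0.0006, adjusted p = 0.0223, n = 8) and rho = 0.857 (adjusted p = 0.140), with r = 0.891 without KO replicate 1 and WT replicate 2. Slc1a3 and Ntsr2 had r = 0.905 (exact permutation p = 0.0025, adjusted p = 0.0285, n = 8) and rho = 0.905 (adjusted p = 0.103), but r was 0.628 without those libraries. With WT replicate 2 alone left out, r was 0.942 for Ntsr2 and S100b and 0.930 for Slc1a3 and Acsbg1. The first 3 pairs therefore kept a high r without the extreme libraries, and the last rested in part on them. These libraries span both genotypes, and the pairs share depth and scaling.

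Aqp4 went against the others, and did so in 1 library. Its correlation was below 0 with 8 of the other 9 genes over the 8 libraries, and below 0 with 0 of 9 without WT replicate 2. With Gja1 it had r = -0.839 (exact permutation p = 0.124, adjusted p = 0.243, n = 8) and rho = 0.119, and r became 0.821 without WT replicate 2. With WT replicate 2 left out, 44 of the 45 pairs had r above 0 and the median was 0.61. Aqp4 was thus correlated above 0 with each of the other genes in 7 libraries, and stood apart in the library where Gfap was high. KO replicate 1 was the highest of those 7 for Aqp4. With it left out as well, r was -0.010 with Gjb6, 0.207 with Aldh1l1 and 0.298 with Acsbg1. It was 0.588 with Slc1a3, 0.768 with Gja1, 0.746 with Ntsr2 and 0.739 with S100b.

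The 5 genes outside the 10 whose centred log2 CPM was most like the mean of the 10 over the 8 libraries were Eva1a (r = 0.986), Ndrg2 (r = 0.984), the antioxidant enzyme Prdx6 (r = 0.977), Prom1 (r = 0.973) and Aldh6a1, an enzyme of valine breakdown (r = 0.966). They were picked for this likeness from all genes tested, so the values are a description. All 5 were lowest in WT replicate 2 and highest in KO replicate 1. Ndrg2, itself an astrocyte-enriched gene, was at 856 ± 135 CPM for WT against 988 ± 113 CPM for KO (SD, n = 4 each). Without WT replicate 2 the 5 values of r ranged from 0.940 for Aldh6a1 to 0.979 for Eva1a.

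A list of 72 other astrocyte genes, grouped by role, showed a similar library pattern. All 72 were tested: 0 were called by edgeR, 57 had a log2 fold change above 0 (background 50.1%), and the median was 0.07. At an unadjusted p under 0.05, 6 were higher in KO and 0 lower, where 3.96% of all genes tested were higher and 2.20% lower. Groups did not overlap for 1 of the 72, Ppp1r3g, against 3.80% of all genes. WT replicate 2 was the lowest library for 42 of the 72 and KO replicate 1 the highest for 38. Without WT replicate 2, 49 of 72 were above 0 and the median was 0.05, and with KO replicate 1 left out as well the median was 0.01.

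By role, 14 of 15 transport and ion genes were above 0 (median 0.07), among them Slc39a12, a zinc transporter, at 68.0 ± 7.49 CPM for WT against 76.8 ± 1.89 CPM for KO (unadjusted p = 0.0437 and adjusted p = 0.796 by edgeR). The fatty acid transporter Slc27a1 had a log2 fold change of 0.23. Leaving out WT replicate 2, the log2 fold change was 0.14 for Slc27a1 and 0.11, from 0.18, for Slc39a12. Metabolism genes were above 0 in 16 of 18 (median 0.15), and without WT replicate 2 in 15 of 18 (median 0.09). Ppp1r3g, a glycogen-targeting subunit of protein phosphatase 1, was at 4.33 ± 0.606 CPM for WT against 5.76 ± 0.720 CPM for KO, giving a log2 fold change of 0.41 (SE 0.14; unadjusted p = 0.0139 and adjusted p = 0.796 by edgeR). The thioesterase Acot11 had a log2 fold change of 0.36 and the phospholipase Pla2g7 one of 0.18, both with an adjusted p of 0.796 by edgeR. Secreted and phagocytic genes were above 0 in 9 of 11 (median 0.13), with Lcat, which esterifies cholesterol on lipoproteins, at 0.31, the BMP antagonist Chrdl1 at 0.23 and the serine protease Htra1 at 0.15. The count was 8 of 11 without WT replicate 2, with a median of 0.05. The groups of these named genes overlapped except for Ppp1r3g.

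Endfoot and junction genes, the neighbours of Aqp4 at the vessel, were above 0 in 6 of 9 (median 0.06), and in 5 of 9 without WT replicate 2 (median 0.03). Hepacam, an adhesion protein of astrocyte junctions, had a log2 fold change of 0.14, Cldn10 one of 0.20, and Dag1, the dystroglycan that links endfeet to the basal lamina, one of -0.10. These values were 0.08, 0.07 and -0.06 without WT replicate 2. Dag1 was at 165 CPM in WT replicate 2, its highest library, and at 126 to 155 CPM in the other 7. Signalling genes were above 0 in 8 of 12 (median 0.06), with F3 (tissue factor) at 0.30, the metabotropic glutamate receptor Grm3 at 0.10 and the endothelin receptor Ednrb at -0.16. Grm3 was at 0.04 and Ednrb at -0.10 without WT replicate 2. Transcription factor genes were above 0 in 4 of 7 (median 0.02), with Nfia, a factor of glial development, at 0.12, the hedgehog pathway factor Gli3 at 0.11 and Rfx4 at -0.09, and without WT replicate 2 in 2 of 7 (median -0.02), with Gli3 at -0.006. These 3 lists stood nearer to the background share than transport, metabolism and secreted genes did in the 8 libraries, a difference that was not tested.

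WT replicate 2 did not lower every astrocyte gene: 8 of the 72 were highest there. Slc14a1, a urea transporter, was at 59.4 CPM in WT replicate 2 and at 25.1 to 31.6 CPM in the other 7 libraries. Prodh, a proline-degrading enzyme, stood at 11.6 CPM there and at 19.7 to 31.6 CPM in the others, and Mfge8, a phagocytic bridging protein, at 124 CPM against 203 to 277 CPM. Slc14a1, Prodh and Mfge8 were chosen after their values were seen.

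Most of the tested genes of reactive astrocytes were highest in that library. Of 26 listed, 23 were tested, and 16 of the 23 were highest in WT replicate 2, against 18.9% of all genes. Another 5 were highest in KO replicate 4 (background 15.5%) and 2 in WT replicate 3 (background 7.82%). Lcn2, named after its values were seen, did not pass the filter. It was at 16.7 CPM in KO replicate 4 and at most 0.272 CPM in the others. Gfap was at 567, 1805, 469 and 442 CPM in WT replicates 1 to 4 and at 571, 508, 500.1 and 578 CPM in KO replicates 1 to 4 (log2 fold change -0.61, edgeR adjusted p = 0.826). Its sign turned without WT replicate 2, to 0.13. Vim, another filament gene, was at 105 CPM in WT replicate 2 and at 39.9 to 77.0 CPM in the others, and its log2 fold change went from -0.23 to 0.08 without that library. The sphingosine phosphate receptor S1pr3 was at 46.2 CPM there and at 9.69 to 12.6 CPM in the others, and the protease inhibitor Timp1 at 8.85 CPM against at most 0.512 CPM. In KO against WT, 5 of 23 were above 0 with a median of -0.23, and without WT replicate 2 18 of 23 were above 0 with a median of 0.08. The summed level of the list was 2668 CPM in WT replicate 2, 777 to 935 CPM in the other WT libraries and 847 to 1091 CPM in KO. The part of this list in the levels of the 10 genes was not tested.

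**Figure D4:**
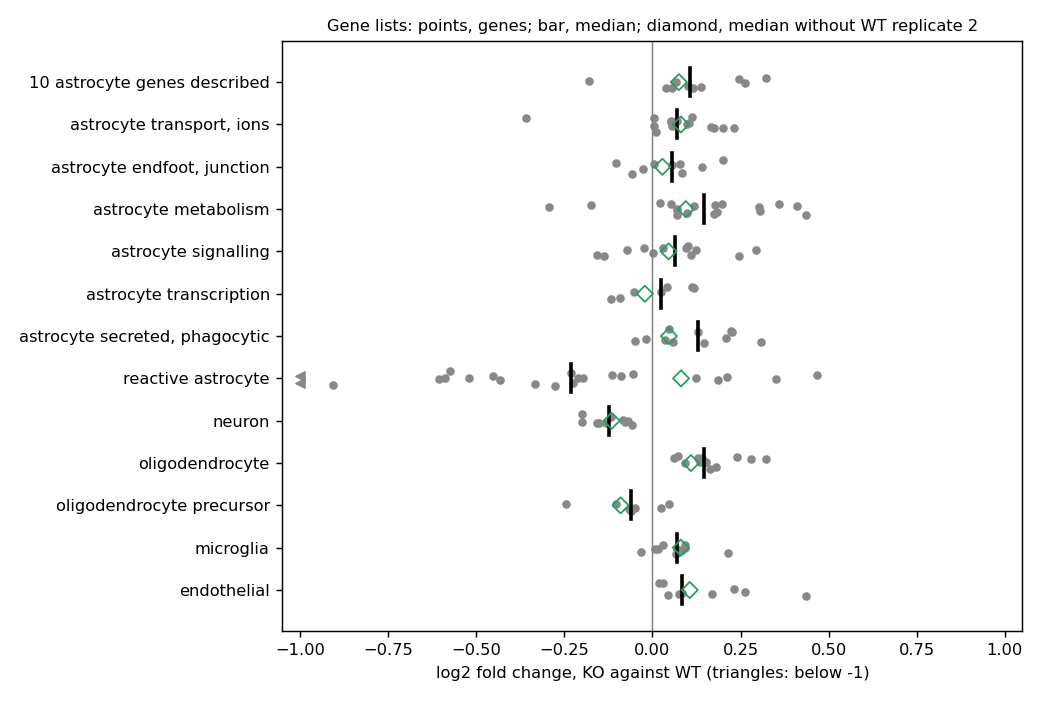
Log2 fold change of KO against WT (horizontal axis) of the tested genes of each list (points), with the median from all 8 libraries (black bar) and without WT replicate 2 (green diamond); triangles are genes below -1. The median of the 10 genes moves from 0.11 to 0.08, and that of the reactive list from -0.23 to 0.08.

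Partner genes of the glutamate-glutamine cycle leaned the other way. Of 9 partner genes tested, 0 were called by edgeR, 2 were above 0 (background 50.1%), and the median was -0.09. This lean was not particular to the cycle: 0 of 10 neuron markers were above 0 (median -0.12), and Slc17a7 is in both lists. Slc17a7, the vesicular glutamate transporter of excitatory neurons, was at 1669, 1966, 1501 and 1679 CPM in WT replicates 1 to 4 and at 1395, 1537, 1511 and 1490.0 CPM in KO replicates 1 to 4, and the groups overlapped through WT replicate 3. Its log2 fold change was -0.20 (SE 0.08; unadjusted p = 0.0388 and adjusted p = 0.796 by edgeR), and -0.12 without WT replicate 2. The neutral amino acid transporter Slc1a4 came close to overlap but did not, at 76.2 to 118 CPM across WT and 69.5 to 76.2 CPM across KO (the 2 values of 76.2 differ before rounding), with its highest value in WT replicate 2 (log2 fold change -0.25, and -0.08 without that library). Of the 9 partner genes, 2 had groups that did not overlap, against 3.80% of all genes.

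Among relatives of the 10 genes, 7 of 10 other connexins and pannexins were above 0 (median 0.09), with Gjc3, a connexin of myelinating glia, at 0.25, the pannexin Panx1 at -0.10 and Gjd2, the connexin of neuronal electrical synapses, at -0.12, and 5 of 10 without WT replicate 2 (median 0.02). Without that library Gjc3 was at 0.17, Panx1 at -0.02 and Gjd2 at -0.18. Other aquaporins were low: 3 of the 5 in the table were tested, Aqp11 at 25.6 ± 3.84 CPM for WT against 26.3 ± 1.62 CPM for KO, Aqp9 near 2.00 CPM, and Aqp1, a choroid plexus channel, between 0.709 and 26.7 CPM. Their log2 fold changes were all above 0 (median 0.10), and 2 of 3 were without WT replicate 2 (median 0.04). Paralogs of S100b and Aldh1l1 and other relatives were above 0 in 2 of 6 (median -0.07), and in 4 of 6 without WT replicate 2 (median 0.02). S100a1 had a log2 fold change of 0.20, S100a13 one of 0.08 (0.04 without that library), and Aldh1l2, the mitochondrial relative of Aldh1l1, one of -0.38. Aldh1l2 was at 12.2 CPM in WT replicate 2 and at 4.89 to 5.63 CPM in the others, and its log2 fold change was 0.05 without that library. None of these relatives was called by edgeR.

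Markers of other cell types also differed between libraries. The 10 neuron markers were all below 0 in KO against WT (median -0.12, and -0.12 without WT replicate 2), with summed levels of 8952 to 9800.4 CPM across WT and 7943 to 9049 CPM across KO. KO replicate 1, the highest library for 6 of the 10 astrocyte genes, was the lowest for 7 of the 10 neuron markers (background 22.3%). Oligodendrocyte markers were above 0 in 12 of 12 (median 0.15, and 10 of 12 with a median of 0.11 without WT replicate 2), with sums of 3808 to 5438 CPM across WT and 4644 to 5224 CPM across KO. Microglia markers were above 0 in 9 of 10 (median 0.07), endothelial in 9 of 9 (median 0.08), pericyte and smooth muscle in 6 of 8 (median 0.09), and oligodendrocyte precursor in 2 of 7 (median -0.06). Meningeal markers were above 0 in 7 of 10 (median 0.10) and in 5 of 10 without WT replicate 2 (median 0.01), with sums of 418 to 2156 CPM across WT and 578 to 1651 CPM across KO. Ependymal markers were above 0 in 4 of 9 (median -0.04) and hippocampal region markers in 5 of 12 (median -0.10). The counts were 5 of 9 (median 0.01) and 6 of 12 (median -0.01) without WT replicate 2. None of the markers in these lists was called by edgeR.

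Choroid plexus markers had the widest sums, 255 to 3595 CPM across WT and 433 to 4852 CPM across KO. Their log2 fold changes were above 0 in 11 of 12 (median 0.30), and in 12 of 12 without WT replicate 2 (median 1.136). The highest were WT replicate 2 (3595 CPM) and KO replicate 2 (4852 CPM). Glul was at 1165 CPM in the former and at 1911 CPM in the latter. With a choroid plexus score as a covariate the 10 log2 fold changes kept their signs, and their median was 0.14. In that edgeR fit the log2 fold change was 0.39 for Glul (unadjusted p = 0.0082), 0.28 for Ntsr2 (0.034) and 0.17 for Acsbg1 (0.038). Each had an adjusted p of 0.779, and 1005 of the 16228 genes had an unadjusted p under 0.05. None of the tested markers in these cell type lists was at 0 in any library. No list other than that of neurons had all its genes below 0, and the part of these other cell types in the levels of the astrocyte genes was not tested.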

How the data were processed

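Poly(A) RNA was sequenced in 4 WT and 4 KO hippocampus libraries, made from 1000 ng of total RNA with 12 PCR cycles and a strand-marking kit, per the labels. The authors deposited raw read counts, whole numbers for each Ensembl gene in each library, per the file headers. The submitters' processing notes name bcl2fastq 2.17.1.14 for demultiplexing and the mm10 build. The sources used here do not give the aligner, the counter, the annotation or the use of strand. Groups came from the sample titles. Of 31417 gene IDs, 31292 were matched to the GENCODE M21 annotation of GRCm38, the same assembly, for symbols, positions and exon lengths, and promoters came from RefSeq (GRCm38.p6).

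KO was compared with WT in all 8 libraries by edgeR 4.0.16 in R 4.3.3 (TMM scaling, filterByExpr, robust quasi-likelihood F test, Benjamini-Hochberg over 16228 genes, called at an adjusted p under 0.05). CPM used the same factors. Log2 CPM for correlations had a prior count of 2. The standard error of a log2 fold change was computed as the fold change over the root of F. Correlations were tested by exact permutation over the 8 libraries (scipy 1.17.1). Libraries of the same genotype differed by more than counting noise (chi-square per degree of freedom of 8.85 to 40.9, genes summing to 20 counts or more), so none is a library deposited again. This does not show that they came from separate mice. The fit was tested on simulated data. Without molecular identifiers, PCR copies are not independent, and counting error is a lower limit of the technical error.

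The 10 genes and the gene lists were chosen with earlier results of these data known. Named genes are Dclk3, the 10 genes, up to 3 tested genes with the lowest p from each list of astrocyte genes or relatives, Gfap, Vim and 2 more reactive genes, and the 5 genes most like the mean of the 10. Some genes that this rule names are not reported here. Others are said to be chosen after their values were seen. Alternatives were DESeq2 1.42.0, voom from limma 3.58.1 with quality weights, edgeR with upper quartile scaling or DESeq2's size factors, no filter or 1 CPM in 4 libraries, no robust estimation, a replicate block, a choroid plexus covariate, a threshold of 0.1, and each library left out. Leaving out WT replicate 2 and KO replicate 1 together was added after seeing the data.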

Additional observations from a re-analysis of the deposited data

Results flagged for a closer look

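The level of a gene in 1 library was compared with the other 3 of its group by Dixon's criterion, for 36 groups of 4 libraries. In 3 of the 36 a library lay apart, and all 3 were in WT replicate 2. Chance alone marks about 1 in 20 groups. The groups share the same libraries, and some of the genes were picked for their values in them. The 3 are therefore a description, and an excess over chance was not tested. Aqp4 was at 375 CPM there and at 214 to 228 CPM in the other WT libraries. Gfap was at 1805 CPM there and at 442 to 567 CPM in the others. Dclk3 was at 39.3 CPM there and at 20.8 to 23.5 CPM in the others. Glul and Gja1, the lowest of their group in the same library at 1165 and 201 CPM, lay within the limit of the criterion.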

How the results depend on the processing

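Under the 18 alternative settings, the 10 astrocyte genes gave 180 log2 fold changes, of which 0 were called and 173 kept their direction, with adjusted p between 0.446 and 0.9999. The 7 that reversed were Slc1a2 (-0.025 by limma-voom), Aqp4 (0.0084), Gja1 (-0.066) and S100b (-0.023) with WT replicate 2 and KO replicate 1 both left out, and 3 with 1 library left out. With each library left out in turn, Slc1a2 ranged from -0.020 to 0.090, Aqp4 from -0.26 to 0.061 and Gja1 from -0.023 to 0.20. Limma-voom also gave smaller values for Slc1a3 (0.054), Aqp4 (-0.042), Gja1 (0.033), Gjb6 (0.095) and Acsbg1 (0.076). The cause was not tested. Genes called over the whole table numbered 0 by edgeR, with 1000 at an unadjusted p under 0.05, 5 by DESeq2, 0 to 1 with a library left out, and 1 with a replicate block. Genes at an unadjusted p under 0.05 numbered 556 to 1777 with a library left out (556 without WT replicate 4, 640 without KO replicate 2 and 1777 without KO replicate 4). Same-numbered libraries had correlations of deviations of 0.14, 0.12, -0.22 and -0.01. Only WT replicate 1 and KO replicate 2 correlated best with the library of their own number in the other genotype. The choroid plexus score lay close in WT and KO for numbers 1 to 3: -1.12 and -1.18, 1.80 and 2.04, and 0.60 and 0.87. For number 4 it was -2.08 and -0.94. These values do not settle whether the replicate numbers pair the samples. With the replicate block the 10 genes kept their directions. In that edgeR fit the unadjusted p was 0.011 for Glul, 0.013 for Ntsr2 and 0.047 for Acsbg1, each with an adjusted p of 0.821. There, 928 of the 16228 genes had an unadjusted p under 0.05. Scaling moved the median of all genes by at most 0.02. The reactive list turned from a median of -0.23 to 0.08 without WT replicate 2, with -0.37 when WT replicate 4 and -0.36 when KO replicate 4 was left out. The median of the other 72 astrocyte genes was 0.11 without WT replicate 1. With a median standard error of 0.11 over all genes, differences as small as those of most of the 10 genes could not be told from 0.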
